A study of Sus scrofa with 15 samples.

Results

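The genes described here belong to Notch signalling in the backfat of Iberian pigs: the ligands DLL1, DLL4, JAG1 and JAG2, the receptors NOTCH1, NOTCH2 and NOTCH4, and the target genes HES1, HEY1 and HEYL. The list of 10 genes was drawn up by name after earlier results of the same data were known, and DLL1 was chosen by its CPM (counts relative to the scaled library size), which was higher in the libraries of the WCOC diet. A row of counts could be matched to 8 of the 10 genes by symbol, out of 30477 genes in all, and the same 8 passed the filter on low counts. JAG2 and NOTCH1 were not analysed here.

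Each of the 15 libraries came from the subcutaneous backfat of 1 growing Iberian pig, biopsied at about a year of age, with 5 pigs per diet. Control pigs (C) ate a compound feed, DOP pigs a compound feed that contained dry olive pulp, and WCOC pigs a compound feed without by-product. WCOC pigs were also offered a silage of wet crude olive cake and straw ad libitum. All compound feeds were restricted, that of C less strongly than those of DOP and WCOC relative to ad libitum energy intake. The pigs of a diet shared 1 pen, so diet and pen cannot be told apart, and the pigs sequenced were picked for the amount and quality of their RNA. The libraries held 22373715 to 34745218 counts on genes. Flow cell A carried 4 C and 5 WCOC libraries and flow cell B carried 1 C and 5 DOP libraries, so WCOC vs. DOP cannot be told apart from the flow cell. The C library on flow cell B was C replicate 5. In WCOC vs. C, the fits with the flow cell as a covariate and within flow cell A therefore both set that pig aside. They are not separate checks. In DOP vs. C the covariate fit rests on that C pig alone. The labelled tissue matched its markers, since the 8 adipocyte markers had counts in every library and their summed level was 12573 to 22073 CPM. Skeletal muscle markers, which are no part of fat, summed to 10693 CPM in DOP replicate 2, 6025 CPM in DOP replicate 4 and 46891 CPM in DOP replicate 5, against 21.97 to 3730 CPM in the other libraries.

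Notch signalling works between touching cells. A ligand of the Delta or Jagged kind on one cell binds a Notch receptor on its neighbour, the receptor is cut by proteases, and its inner part moves to the nucleus, where it joins the DNA-binding protein RBPJ and switches on repressors of the HES and HEY families. The pathway is best known in blood vessels, where DLL4 and NOTCH4 mark endothelial cells and HEYL marks the mural cells around them, and in fat it also bears on the choice of precursor cells to become adipocytes. Backfat holds adipocytes, vessels and connective tissue, and in bulk RNA fewer cells of a type and less RNA per cell cannot be told apart.

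The DNA just before a target gene is where RBPJ would sit, so the 250 bases before the annotated start were read from the Sscrofa11.1 assembly of RefSeq for DLL1, DLL4, JAG1, NOTCH2, NOTCH4 and HEYL. They are shown for 3 genes: HEYL, a target whose window held the longest match, and the ligands DLL1 and DLL4, whose levels are described in most detail. Capitals mark the letters TGGGAA or, on the other strand, TTCCCA, the core to which RBPJ is known to bind.
HEYL, chr6:95459598-95459847, minus strand: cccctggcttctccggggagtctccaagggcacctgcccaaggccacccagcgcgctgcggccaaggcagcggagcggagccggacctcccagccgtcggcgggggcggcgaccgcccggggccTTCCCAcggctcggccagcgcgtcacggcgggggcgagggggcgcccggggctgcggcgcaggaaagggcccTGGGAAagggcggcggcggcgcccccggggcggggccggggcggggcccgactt
DLL1, chr1:198565-198814, plus strand: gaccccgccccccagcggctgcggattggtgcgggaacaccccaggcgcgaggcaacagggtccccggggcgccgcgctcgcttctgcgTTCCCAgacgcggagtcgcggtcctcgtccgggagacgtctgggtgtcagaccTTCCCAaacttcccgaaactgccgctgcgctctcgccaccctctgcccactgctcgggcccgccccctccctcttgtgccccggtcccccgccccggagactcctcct
DLL4, chr1:130386412-130386661, minus strand: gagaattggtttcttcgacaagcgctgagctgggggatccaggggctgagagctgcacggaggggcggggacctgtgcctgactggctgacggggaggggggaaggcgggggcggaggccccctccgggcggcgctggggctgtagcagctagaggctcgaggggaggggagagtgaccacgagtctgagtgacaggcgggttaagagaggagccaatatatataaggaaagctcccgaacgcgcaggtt

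The HEYL window held 2 matches, at 126 and 54 bases before the start. The match farther from the start read TTCCCACG, so that it also held the longer motif CGTGGGAA, which contains the core. The DLL1 window held the core at 161 and 108 bases before the start, and the NOTCH2 window held it at 227 bases. The windows of DLL4, JAG1 and NOTCH4 held none. Across 20664 windows of the same length before protein-coding genes, 24.6% held the core on either strand, 3.36% held it 2 or more times, and 0.803% held CGTGGGAA. The other 2 motifs searched on both strands, CACGTG and CACGCG, are letters bound by HES and HEY proteins and were in 0 of the 6 windows read for these genes, against 6.16% and 9.37% of all windows. These matches describe the letters in the windows and no binding was measured.

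On the annotation of that assembly, DLL1 (ENSSSCG00000027726) spans chr1:198815-211346 and DLL4 (ENSSSCG00000004755) chr1:130376720-130386411. JAG1 (ENSSSCG00000007067) spans chr17:19591248-19629659, NOTCH2 (ENSSSCG00000006709) chr4:100951522-101152348 and NOTCH4 (ENSSSCG00000001440) chr7:24231293-24256281. HES1 (ENSSSCG00000031356) spans chr13:131135970-131137865, HEY1 (ENSSSCG00000006159) chr4:56859640-56863807 and HEYL (ENSSSCG00000038956) chr6:95442655-95459597. NOTCH2 and NOTCH4 each overlap 1 uncharacterised gene on the opposite strand, and the strand setting of the counting is not given in the sources used here, so their counts may hold reads of that neighbour.

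Per kilobase of exon, JAG1 was the highest of the 8 genes and DLL1 the lowest. Over the 15 libraries the mean level of JAG1 was 26.0 ± 3.91 CPM per kb (SD, n = 15), followed by HEYL at 20.6 ± 5.70, HES1 at 17.6 ± 2.65, NOTCH4 at 15.4 ± 3.36 and NOTCH2 at 13.1 ± 1.75 CPM per kb. HEY1 at 6.57 ± 1.92, DLL4 at 6.01 ± 1.81 and DLL1 at 3.27 ± 0.802 CPM per kb stood lower. The step from NOTCH2 to HEY1, a ratio of 2.00, was the only one between neighbours in this order whose ranges over the libraries did not overlap. DLL4 exceeded DLL1 in 15 of 15 libraries, while the order of the other neighbours turned in 4 to 6 libraries. The HES1 model holds 854 exon bases, of which 843 are coding, so its level per length may be overstated relative to genes whose models include untranslated sequence. Lengths are those of RefSeq models while counts were made on Ensembl genes, so this order is uncertain to that extent.

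**Figure D1:**
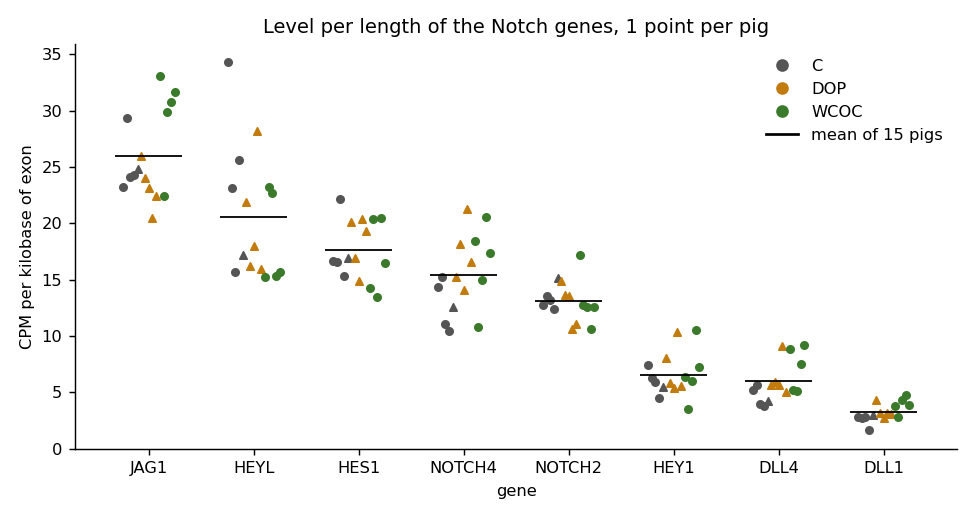
Level of each Notch gene in CPM per kilobase of exon (vertical axis) for 15 pigs, with colours for the diets, circles for flow cell A, triangles for flow cell B and a line at the mean. JAG1 had the highest mean at 26.0 and DLL1 the lowest at 3.27 CPM per kb.

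DLL1, a Delta ligand, was measured at 15.5, 14.95, 15.2, 8.92 and 16.1 CPM in C, at 23.7, 17.3, 14.9, 17.2 and 16.9 CPM in DOP, and at 20.5, 15.5, 23.3, 26.0 and 20.9 CPM in WCOC. C replicate 4 was the lowest of the 15 libraries, 4 of the 5 WCOC pigs stood above every C pig, and WCOC replicate 2 lay within the C range. The mean was 14.1 ± 2.94 CPM in C, 17.99 ± 3.31 CPM in DOP and 21.2 ± 3.92 CPM in WCOC (SD, n = 5 each). Since DLL1 was chosen for its level in WCOC, its differences from C (log2FC 0.59 ± 0.17, SE) and from DOP (0.24 ± 0.17) are given as a description with no test. Without C replicate 4, the first of these was 0.46. Within flow cell A it was 0.63, and with the flow cell as a covariate 0.64, and both fits set C replicate 5 aside. In DOP vs. C, which shares the C pigs with that comparison, the log2FC was 0.35 ± 0.17 and did not pass the test (adjusted p = 0.314, edgeR quasi-likelihood test).

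DLL4, the Delta ligand of endothelial cells, showed the largest fitted difference of the 8 genes between WCOC and C. Its level was 17.95, 19.3, 13.6, 13.01 and 14.7 CPM in C, 19.4, 20.2, 19.5, 31.2 and 17.2 CPM in DOP, and 30.4, 17.9, 17.6, 25.9 and 31.6 CPM in WCOC. In WCOC the pigs fell apart into 3 that exceeded every C pig and 2 that lay inside the C range. The means of 15.7 ± 2.77 CPM in C and 24.7 ± 6.68 CPM in WCOC differed by a log2FC of 0.65 ± 0.20 (95% CI 0.23 to 1.08, 1.57-fold), which lay just outside the threshold (adjusted p = 0.0508, edgeR). The adjusted p was 0.0163 with DESeq2 and 0.0978 with the flow cell as a covariate, and within flow cell A it was 0.110. Leaving out each library in turn moved it between 0.0273 and 0.133, and it was under the threshold without C replicate 2, DOP replicate 4, DOP replicate 5, WCOC replicate 2 or WCOC replicate 3. DOP averaged 21.5 ± 5.56 CPM, and its difference from C did not pass the test (log2FC 0.45 ± 0.20, adjusted p = 0.256).

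JAG1, a Jagged ligand that is widely expressed, was measured at 133.4, 168.5, 138.5, 139.3 and 142.4 CPM in C, at 149.1, 137.7, 132.8, 117.4 and 128.8 CPM in DOP, and at 189.9, 128.5, 171.5, 176.2 and 181.3 CPM in WCOC. The WCOC pigs other than replicate 2 stood above every pig of the other diets, and replicate 2 stood below every C pig. WCOC exceeded DOP by a log2FC of 0.35 ± 0.10 (95% CI 0.12 to 0.57, adjusted p = 0.0421), a change that passed the p threshold and was smaller than the fold limit of a log2FC of 0.58. In this comparison the flow cell cannot be told apart from the diet. Without the 3 DOP libraries with the most skeletal muscle RNA the log2FC was 0.26 (adjusted p = 0.523). That fit keeps only DOP replicates 1 and 3, so fewer pigs and less muscle RNA cannot be told apart. When 1 library was left out, the adjusted p ranged from 0.00821 (without WCOC replicate 2) to 0.102 (without DOP replicate 4) and stayed under 0.05 only without C replicate 2, DOP replicate 1 or WCOC replicate 2. Against C the log2FC of JAG1 was 0.23 ± 0.10 in WCOC (adjusted p = 0.174) and -0.12 ± 0.10 in DOP (adjusted p = 0.615).

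Of the receptors, NOTCH4, which is largely endothelial, was measured at 96.2, 102, 74.5, 70.3 and 84.4 CPM in C, at 102, 122, 94.5, 143 and 111 CPM in DOP, and at 124, 72.6, 101, 138 and 117 CPM in WCOC. Both olive diets had the higher mean, at 115 ± 18.9 CPM in DOP and 110 ± 24.98 CPM in WCOC against 85.5 ± 13.7 CPM in C, and both overlapped with C. The log2FC was 0.42 ± 0.16 in DOP (adjusted p = 0.201) and 0.37 ± 0.16 in WCOC (adjusted p = 0.166), so neither passed the test. NOTCH2, a widely expressed receptor, ranged from 170 to 208 CPM in C, with a median of 181, from 146 to 204 CPM in DOP, with a median of 186, and from 145 to 236 CPM in WCOC, with a median of 173. Its log2FC against C was -0.07 ± 0.13 in DOP and -0.03 ± 0.13 in WCOC, and the 95% CI of the latter ran from -0.30 to 0.24.

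The target genes showed no difference between diets that passed the test. HES1, a repressor that many signals besides Notch switch on, had a median of 14.2 CPM in C (13.1 to 18.9), 16.5 CPM in DOP (12.7 to 17.4) and 14.04 CPM in WCOC (11.5 to 17.5). HEY1, a target in endothelial cells, was measured at 18.98, 16.1, 15.2, 11.5 and 13.98 CPM in C, at 20.7, 15.1, 13.8, 26.4 and 14.4 CPM in DOP, and at 16.3, 9.13, 15.4, 27.03 and 18.5 CPM in WCOC. WCOC thus held both the lowest and the highest HEY1 value of the 15 pigs. HEYL, a target known from smooth muscle and pericytes, ranged from 55.4 to 121 CPM in C, from 56.4 to 99.6 CPM in DOP and from 53.7 to 82.2 CPM in WCOC. Against C, the 95% CI of the WCOC log2FC was -0.35 to 0.26 for HES1, -0.34 to 0.72 for HEY1 and -0.80 to 0.14 for HEYL, so the HEY1 and HEYL intervals hold changes beyond the fold limit.

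**Figure D2:**
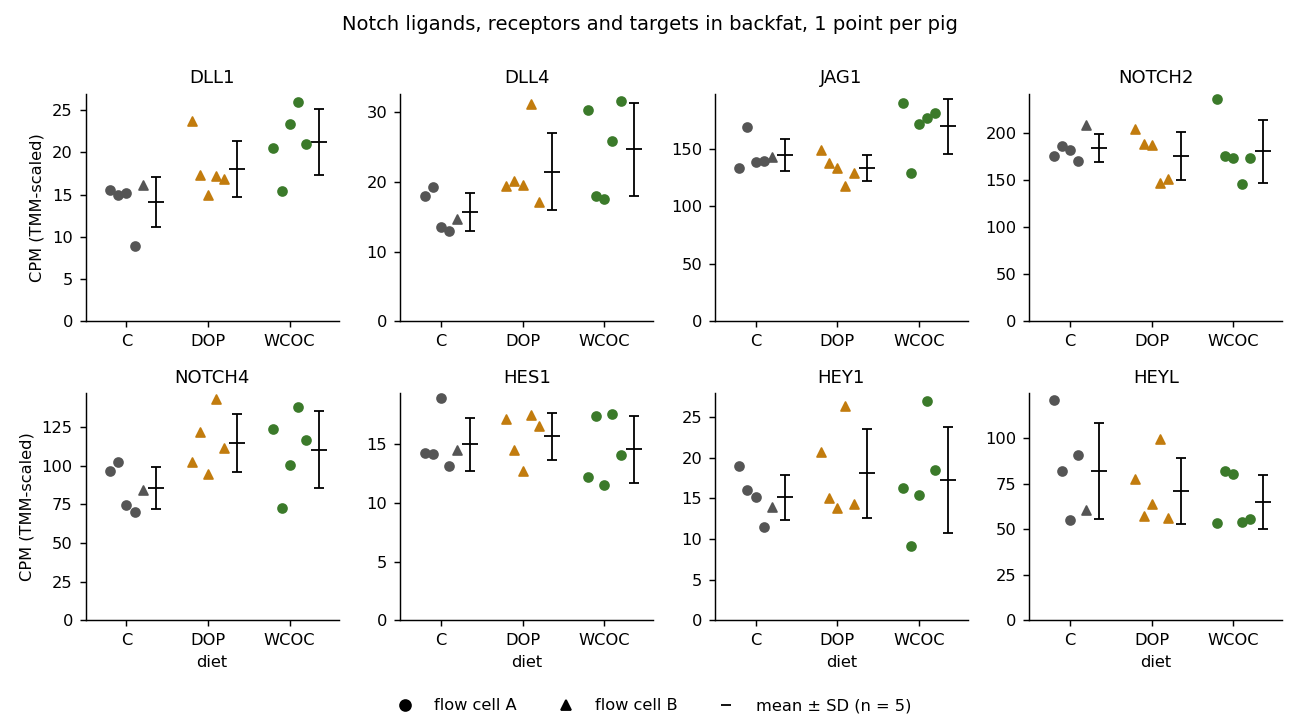
CPM of the 8 Notch genes (vertical axes, from 0) in each pig on the C, DOP and WCOC diets, with circles for flow cell A, triangles for flow cell B and bars for the mean and SD of 5 pigs. The diets overlap for every gene, and for DLL1 the C pig at 8.92 CPM lies apart from the other 14 pigs.

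In DOP vs. C, 0 of the 8 genes passed the adjusted p and the fold limit, where 0.764% of the 14918 tested genes did, and 0 passed the adjusted p alone, against 0.925%. DLL4 and NOTCH4 had an unadjusted p under 0.05, or 2 of 8, against 17.6% of all tested genes. DESeq2 and limma-voom also called 0. In WCOC vs. C, DLL1 is left out of the count, since it was chosen for that difference. Of the other 7 genes, 0 passed both thresholds, where 6.25% of all tested genes did, and 0 passed the adjusted p alone, against 10%. DLL4, JAG1 and NOTCH4, or 3 of 7, had an unadjusted p under 0.05, against 26.4% of all genes. DESeq2 called DLL4 and limma-voom called 0 of the 7. In WCOC vs. DOP, DLL1 is left out as well, since the same WCOC libraries chose it, and 0 of the other 7 passed both thresholds, against 7.76% of all genes. JAG1 was 1 of the 7 with an unadjusted p under 0.05, against 28.1% of all genes, and with an adjusted p under 0.05, against 12.3%. DESeq2 and limma-voom called 0 of the 7 as well. With DLL1 left out of both comparisons with WCOC, the diets stood apart without overlap for 0 Notch genes in each comparison. Of all genes, 3.47% did so in DOP vs. C, 7.62% in WCOC vs. C and 8.90% in WCOC vs. DOP. The median log2FC over the 8 genes was 0.16 in DOP vs. C, 0.21 in WCOC vs. C and -0.01 in WCOC vs. DOP, beside 0.01, 0.00 and 0.00 over all tested genes. It includes DLL1, chosen for its rise, and the first 2 comparisons share the C pigs.

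**Figure D3:**
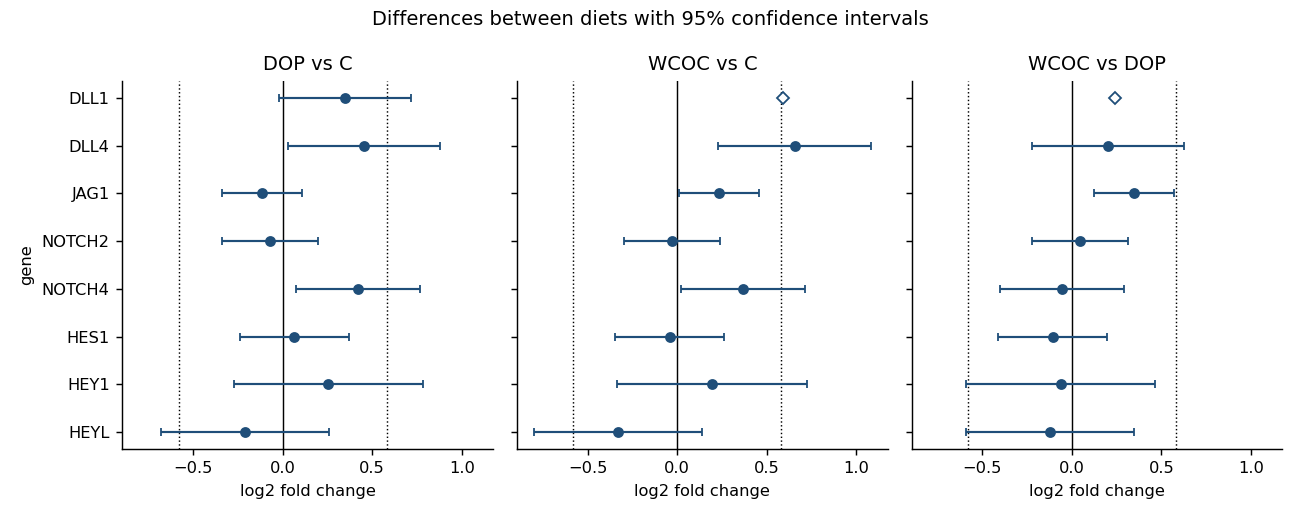
Fitted log2 fold change (horizontal axis) of the 8 Notch genes for each diet pair, with bars for the 95% confidence interval and dotted lines at the fold limit of 0.58 in either direction. The open diamonds mark DLL1 in the comparisons for which it was chosen, shown without an interval. DLL4 in WCOC vs. C lies farthest from 0, at 0.65.

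Of the 52 other genes of the pathway listed by role, 48 had a matching row and 44 passed the filter. In DOP vs. C, 0 of the 44 passed both thresholds and 4 had an unadjusted p under 0.05 (LFNG, NEURL1, NEURL1B and HES4), against 0.764% and 17.6% of all tested genes, and DESeq2 and limma-voom also called 0. In WCOC vs. C, HES4 alone of the 44 passed both thresholds, where 6.25% of all tested genes did. NOTCH3 and APH1B also passed the adjusted p, with a change below the fold limit, where 10% of all tested genes passed it. In WCOC vs. DOP, NEURL1 alone passed both, against 7.76% of all tested genes, and APH1B also passed the adjusted p, against 12.3%. An unadjusted p under 0.05 was found for 12 of the 44 in WCOC vs. C, against 26.4% of all genes, and for 5 in WCOC vs. DOP, against 28.1%. The median log2FC of the 44 genes was -0.01 in DOP vs. C, 0.04 in WCOC vs. C and 0.05 in WCOC vs. DOP. The pigs of 2 diets did not overlap for 0 of the 44 in DOP vs. C, 4 in WCOC vs. C and 1 in WCOC vs. DOP (APH1B). Of all tested genes, 3.47%, 7.62% and 8.90% did so. The 4 were NOTCH3 and APH1B, higher in WCOC, and HES4 and FURIN, lower in WCOC. FURIN had an adjusted p of 0.0578 (edgeR).

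HES4, a repressor of the same family as HES1 and the most abundant of the other HES and HEY genes, was lower in WCOC than in C. It lies at chr6:63351593-63356690 of Sscrofa11.1. Its level was 104, 85.1, 88.0, 95.2 and 75.98 CPM in C, 80.9, 60.6, 63.3, 69.1 and 39.5 CPM in DOP, and 47.6, 58.7, 44.6, 52.4 and 71.2 CPM in WCOC. Every WCOC pig lay below every C pig, while DOP overlapped with both. The WCOC mean of 54.9 ± 10.54 CPM was lower than the C mean of 89.7 ± 10.67 CPM by a log2FC of -0.71 ± 0.17 (95% CI -1.06 to -0.35, adjusted p = 0.0174, edgeR). Within flow cell A the log2FC was -0.77 (adjusted p = 0.0179), and with the flow cell as a covariate -0.76 (adjusted p = 0.0228). Both fits set C replicate 5 aside, so they are not separate checks. Without WCOC replicate 1 the adjusted p was 0.0535, past the threshold. In DOP vs. C the log2FC was -0.52 ± 0.17 (adjusted p = 0.142), and whether the olive diets differ in HES4 was not shown by the test between them (log2FC -0.19 ± 0.17, adjusted p = 0.495).

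NOTCH3, a receptor known from mural cells and the most abundant of the other ligands and receptors, was measured at 185, 218, 186, 188 and 198 CPM in C, at 250, 194, 217, 188 and 177 CPM in DOP, and at 258, 249, 271, 255 and 219 CPM in WCOC. Every WCOC pig lay above every C pig, with WCOC replicate 5 at 219.1 CPM close to C replicate 2 at 217.8 CPM. The WCOC mean of 250.5 ± 19.3 CPM exceeded the C mean of 195.0 ± 13.8 CPM by a log2FC of 0.36 ± 0.10 (adjusted p = 0.0307). The adjusted p was 0.0602 within flow cell A and 0.0543 with the flow cell as a covariate, at log2FCs of 0.36 and 0.37. Leaving out each library in turn moved it between 0.0208 and 0.0835, and it was over 0.05 without C replicate 1, 3, 4 or 5 and without WCOC replicate 1, 3 or 4. In DOP vs. C the log2FC was 0.08 ± 0.10 (adjusted p = 0.743), and in WCOC vs. DOP, whose pigs overlapped, it was 0.29 ± 0.10 (adjusted p = 0.0655). NOTCH3 overlaps an uncharacterised gene on the same strand, so its count is uncertain to that extent.

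APH1B, a subunit of the gamma-secretase that cuts Notch, was singled out after its values were seen. It ranged from 4.44 to 4.87 CPM in C, from 3.87 to 5.70 CPM in DOP and from 6.06 to 6.92 CPM in WCOC, with no overlap between WCOC and either of the others. APH1B overlaps CA12 on the opposite strand and an uncharacterised gene on its own strand, so its low count is uncertain to that extent. Its log2FC was 0.51 ± 0.12 against C (adjusted p = 0.0156) and 0.52 ± 0.12 against DOP (adjusted p = 0.0139). Within flow cell A the former was 0.51 (adjusted p = 0.0495). Without the 3 muscle-rich DOP libraries, which keeps only DOP replicates 1 and 3, the latter was 0.36 (adjusted p = 0.334). The most abundant genes of the remaining lists, the glycosyltransferase MFNG, the gamma-secretase subunit NCSTN, the coactivator KAT2B and the ubiquitin ligase DTX1, had adjusted p of 0.127 or more in all 3 comparisons.

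NEURL1, a ubiquitin ligase that acts on Notch ligands, had the largest fitted difference of the pathway and the least even values. It was measured at 3.82, 33.4, 3.24, 30.3 and 148 CPM in DOP, at 11.4, 2.905, 20.8, 4.17 and 9.08 CPM in C, and between 2.61 and 5.11 CPM in WCOC. The high values in DOP were those of replicates 2, 4 and 5, the libraries whose skeletal muscle markers summed to 10693, 6025 and 46891 CPM, and in C the highest value was that of replicate 3, with 3730 CPM of muscle markers. WCOC vs. DOP gave a log2FC of -3.46 ± 0.88 (adjusted p = 0.0237). With those 3 DOP libraries left out, which keeps only DOP replicates 1 and 3, the log2FC was 0.17 (adjusted p = 0.953). Without DOP replicate 5 alone it was -2.15 (adjusted p = 0.0710), and the adjusted p was 0.0564 without WCOC replicate 1 and 0.0532 without WCOC replicate 3.

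**Figure D4:**
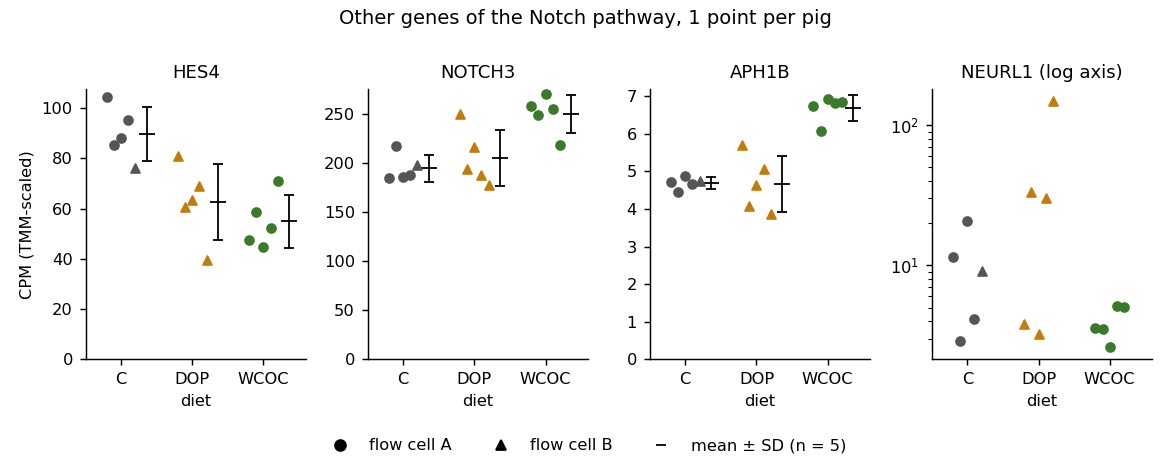
CPM of HES4, NOTCH3, APH1B and NEURL1 in each pig on the 3 diets, with circles for flow cell A, triangles for flow cell B and bars for the mean and SD of 5 pigs; the NEURL1 axis is logarithmic and has no bars. HES4 is lower and NOTCH3 and APH1B are higher in every WCOC pig than in every C pig, and NEURL1 reaches 148 CPM in DOP replicate 5.

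Markers of endothelial cells, which line the vessels, differed between pigs, and 2 of them passed both thresholds between WCOC and C. Of 13 endothelial markers 11 were matched and tested, each with counts in every library, and their summed level was 1200 to 1566 CPM in C, 1571 to 2054 CPM in DOP and 1365 to 2175 CPM in WCOC, led by PECAM1. ERG and CLDN5 passed both thresholds as higher in WCOC vs. C, where 6.25% of all tested genes passed in either direction. In DOP vs. C and in WCOC vs. DOP 0 of the 11 passed both, against 0.764% and 7.76% of all tested genes. Of the 11, 10 had a positive log2FC in DOP vs. C, 11 in WCOC vs. C and 7 in WCOC vs. DOP. Their median log2FC was 0.37, 0.39 and 0.12, beside 0.01, 0.00 and 0.00 over all tested genes. The summed level was highest in WCOC replicate 4 and lowest in C replicate 4, the libraries with the highest and the lowest DLL1. In WCOC it was lowest in replicate 2, which was also the WCOC library with the lowest DLL1, JAG1, NOTCH4 and HEY1. The other genes differed: within WCOC, DLL4 and HES1 were lowest in replicate 3 and NOTCH2 in replicate 4, and HEYL was highest in replicate 2. Since DLL1 was chosen for its level in WCOC, its place here is a description. The part of endothelial content in the differences between diets was not tested.

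The relation of each Notch gene to each of 9 lists of cell type markers was computed over the 15 libraries on the log2 scale, after the diet means were subtracted, which made 72 relations. HEY1 and the endothelial markers had a Pearson's r of 0.95 (exact permutation p = 5.79e-05, adjusted p = 0.00417) and a Spearman's rho of 0.94 (exact permutation p = 0.000116, adjusted p = 0.00838), with permutations within diets. Without the 2 libraries farthest from the median marker level, r was 0.91. It was 0.94 among the 9 libraries of flow cell A and 0.96 among the 6 of flow cell B. This was the only one of the 72 relations whose Pearson's r passed after adjustment. NOTCH4 (r = 0.79, rho = 0.73) and DLL1 (r = 0.77, rho = 0.71) followed with the endothelial markers, and HES1 with the fibroblast and progenitor markers (r = 0.76, rho = 0.78), each with an adjusted p of 0.0758 for r. Without the 2 farthest libraries, r was 0.58 for NOTCH4 and 0.60 for DLL1. NOTCH2 (r = -0.13) showed little relation with the endothelial markers in these libraries. HEYL had an r of 0.19 with them, but 0.65 without the 2 farthest libraries, -0.14 within flow cell A and 0.89 within flow cell B. DLL4 had an r of 0.62 with the endothelial markers, and HEYL 0.31 with the mural cell markers. Negative relations included DLL1 with the adipocyte markers (r = -0.67, adjusted p = 0.142) and NOTCH2 with the mural cell markers (r = -0.65, adjusted p = 0.291, exact permutation).

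**Figure D5:**
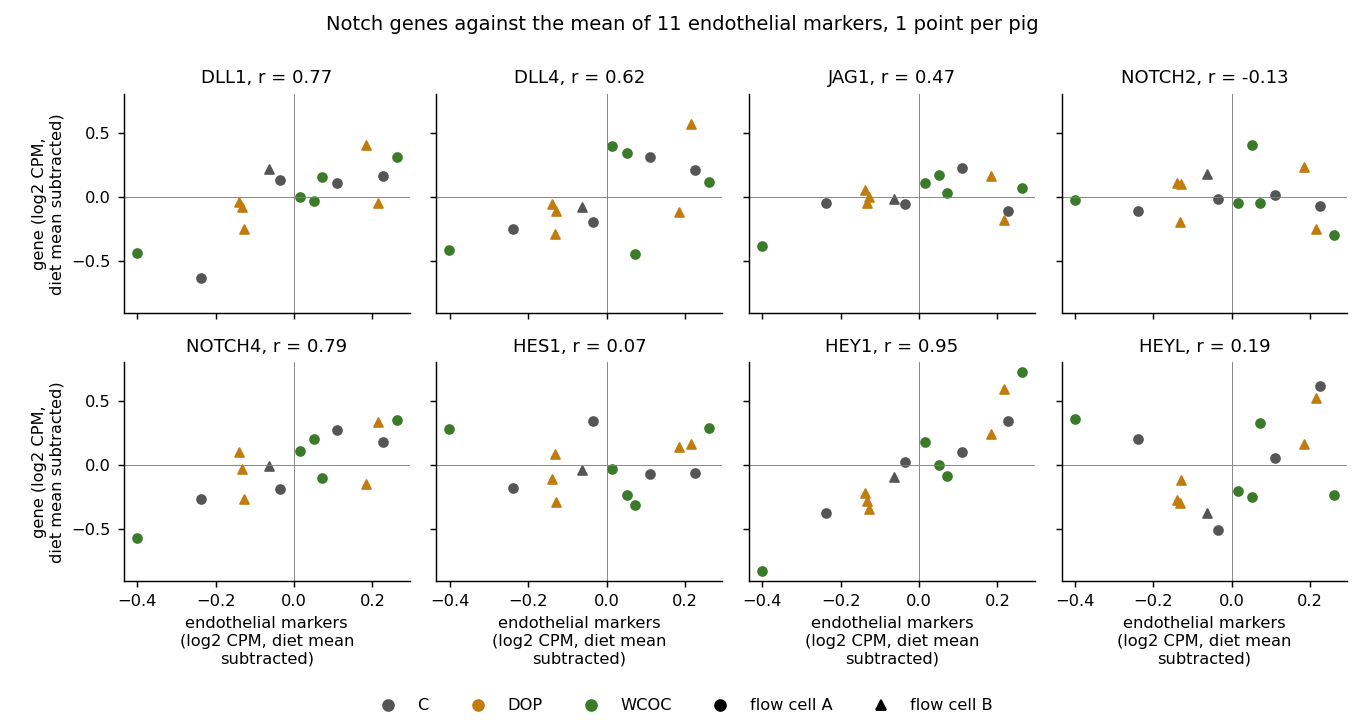
Each Notch gene (vertical axes, log2 CPM with the diet mean subtracted) against the mean of 11 endothelial markers (horizontal axes, same scale), 1 point per pig, with colours for the diets and shapes for the flow cells. The points of HEY1 lie closest to a line (r = 0.95), and HES1 and NOTCH2 had the r nearest 0 over all pigs (0.07 and -0.13).

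Among the Notch genes themselves 28 pairs were compared in the same way, and 2 passed after adjustment. NOTCH4 and HEY1 had an r of 0.83 (exact permutation p = 0.00158, adjusted p = 0.0238) and a rho of 0.76 (exact permutation p = 0.00323, adjusted p = 0.0452), with r at 0.66 without the 2 farthest libraries, 0.90 within flow cell A and 0.63 within flow cell B. DLL4 and NOTCH4 had an r of 0.80 (exact permutation p = 0.0017, adjusted p = 0.0238) and a rho of 0.81 (exact permutation p = 0.00177, adjusted p = 0.0452), with r at 0.83 without the 2 farthest libraries, 0.82 within flow cell A and 0.78 within flow cell B. The pair of a Delta ligand and a target, DLL1 and HEY1, had an r of 0.69 (exact permutation p = 0.00631, adjusted p = 0.0589). These genes share the libraries, their depth and their scaling.

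The genes most like each Notch gene were found by Pearson's r over the 15 libraries after the diet means were subtracted, and are given as a description. For DLL1 they were TES (r = 0.93), ADAM10 (0.92) and FNBP1L (0.91), and without subtracting the diet means ELK3, HOXB3, SEMA4C, FNBP1L and ASAP2 (0.94 to 0.92). For DLL4 they were ATP7B, BTNL9 and ZNF366 (0.86 to 0.85), for JAG1 KIF5A, WIPF2 and OTUD3 (0.95 to 0.93) and for NOTCH2 IGF2R, CNNM3 and ADD3 (0.91 to 0.86). For NOTCH4 they were ZNF529, JCAD and C5orf22 (0.89 for each). HEY1 was most like TNFAIP1 (0.97), ARAP3 (0.94) and ANKRD13D (0.92), HES1 like GGN, THPO and CHRD (0.88 to 0.87) and HEYL like ADPRH, STN1 and PCCB (0.86 to 0.84).

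Some markers of other cell types also differed between the diets. The 8 macrophage markers summed to 217 to 643 CPM in C, 148 to 370 CPM in DOP and 104 to 270 CPM in WCOC. In WCOC vs. C 5 of them were called lower, against 6.25% of all tested genes called in either direction. In DOP vs. C MSR1 was called lower, against 0.764% of all tested genes. The 7 fibroblast and progenitor markers summed to 19509 to 28798 CPM in C and 13184 to 21985 CPM in WCOC, where LUM and COL1A1 were called lower. The 8 markers of mural cells, the cells known for NOTCH3 and HEYL, summed to 827 to 1032 CPM in C, 837 to 1100 CPM in DOP and 779 to 1004 CPM in WCOC. Their median log2FC was -0.17 in WCOC vs. C. KCNJ8 of this list was called higher in DOP than in C, against 0.764% of all tested genes, and lower in WCOC than in DOP, against 7.76%. The 8 adipocyte markers had a median log2FC of 0.42 in WCOC vs. C, and ADIPOQ was called higher. The 5 lymphatic markers summed to 49.6 to 82.9 CPM in C, 29.1 to 107 CPM in DOP and 23.8 to 52.96 CPM in WCOC. Their median log2FC was -0.89 in WCOC vs. DOP, where PROX1 and FLT4 were called lower, against 7.76% of all tested genes. Without the 3 DOP libraries richest in skeletal muscle markers, 0 genes in all were called in DOP vs. C and 80 in WCOC vs. DOP. That fit keeps only DOP replicates 1 and 3, so fewer pigs and less muscle RNA cannot be told apart. In DOP vs. C, leaving out DOP replicate 2 or 4 alone also gave 0 calls, while leaving out replicate 1, 3 or 5 gave 109, 4 and 1. T and B cell markers summed to 2.54 to 18.04 CPM with CD79A at 0 counts in all libraries, and epidermis and hair follicle markers to 3.59 to 139 CPM with KRT27 at 0 counts in 13 libraries. Their part in the levels of the Notch genes was not tested.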

How the data were processed

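RNA from the backfat of 15 pigs, 5 per diet, was sequenced as paired ends. The authors checked the reads with FastQC, aligned them to Sscrofa11.1 with HISAT2 and a strand-specific setting, and deposited raw read counts per Ensembl gene from HTSeq, 1 library per file. Versions, the annotation release and the strand option of the counting are not given in the sources used here. Each file held 30477 genes, and 23.4% to 32.8% of the fragments of a library were on summary lines that name no gene and were left out.

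The genes and lists were chosen with earlier results of these data known. Genes were matched by symbol. Counts were filtered with filterByExpr by diet (14918 genes left), scaled by TMM (factors 0.857 to 1.21) and fitted with the quasi-likelihood test of edgeR 4.0.16 in R 4.3.3, two-sided, with 1 mean per diet over all 15 libraries and with p-values adjusted by Benjamini-Hochberg across the whole table of genes. Calls needed an adjusted p below 0.05 together with an absolute log2FC of 0.58 or more. DESeq2 1.42.0 and limma 3.58.1 (voom) were alternatives, beside other scalings and filters, only the diets compared, a replicate block, the flow cell, and leaving out each library. Levels are TMM-scaled CPM, with a prior count of 1 on the log2 scale. Named pathway genes were those called in any comparison and the most abundant of each list, with APH1B added after its values were seen, and 1 listed gene and 1 upstream sequence are not reported here. The fit and the relations were tested on simulated data first.

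Gene positions, exon lengths and sequences came from RefSeq on Sscrofa11.1. The flow cell was read from the run identifiers of the files. The libraries held 22373715 to 34745218 counts on genes, so the Notch genes had from 229 counts upward and the spread between pigs, not counting error, sets their precision. The labels name separate pigs and not their litters, and p-values measure the spread between pigs of 1 pen per diet.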

Additional observations from a re-analysis of the deposited data

Results flagged for a closer look

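In 5 of 24 sets of 5 pigs (8 genes by 3 diets, log2 CPM) the gap between the outermost pig and its neighbour, as a share of the range of the set, exceeded Dixon's critical value of 0.71. Chance alone gives about 1.2 of 24. DLL1 in C replicate 4 was low at 8.92 CPM, with a share of 0.874, and this library also had the lowest summed endothelial markers of all 15, at 1200 CPM. The part of those markers in its DLL1 level was not tested. DLL4 in DOP replicate 4 was high at 31.2 CPM, with a share of 0.728, in a library with 6025 CPM of skeletal muscle markers. JAG1 in C replicate 2 was high at 168.5 CPM, with a share of 0.718, and JAG1 in WCOC replicate 2 was low at 128.5 CPM, with a share of 0.739. HES1 in C replicate 3 was high at 18.92 CPM, with a share of 0.732.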

How the results depend on the processing

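In WCOC vs. C the 1 Notch gene called was DLL1, which was chosen for its rise in WCOC, so its part in these counts is a description. The count with DLL1 was 0 with no filter, with only the 2 diets fitted, with the flow cell as a covariate and within flow cell A, and 2 (DLL1 and DLL4) with DESeq2 and with at least 10 counts in every library. It ranged from 0 to 2 when a library was left out. Of the other 7 genes, DLL4 was called without C replicate 2, DOP replicate 4 or 5, or WCOC replicate 2 or 3, and without the 3 muscle-rich libraries described next, and 0 of the 7 in the other left-out fits. In DOP vs. C the count of Notch genes was 0 under every alternative. In WCOC vs. DOP it was 1 (JAG1) with no threshold on the log2FC.

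Of the other pathway genes, WCOC vs. C called 3 (NOTCH3, APH1B and HES4) with no threshold on the log2FC, and 0 to 2 when a library was left out (0 without WCOC replicate 1, and 2, RBPJ and HES4, without WCOC replicate 2). WCOC vs. DOP called 2 (NEURL1 and APH1B) with no threshold, 0 with limma-voom, 0 with the 3 libraries over 5000 CPM of skeletal muscle markers left out, and 0 to 2 when 1 library was left out (0 without DOP replicate 5 or WCOC replicate 1, and 2, NEURL1 and APH1B, without DOP replicate 1, while the 1 gene called without WCOC replicate 3 was DLK2). The alternative without the muscle-rich libraries was chosen after seeing the data and keeps only DOP replicates 1 and 3 of that diet.

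Equal replicate numbers showed no pairing in expression. The deviations of same-numbered libraries had r between -0.50 and 0.34, and 1 of 15 libraries was closest to its own number. Whether same-numbered pigs shared a litter or handling cannot be told from this, since the labels do not give it. With the replicate block 0 Notch genes were called in WCOC vs. C, and 0 pathway genes in WCOC vs. C and in WCOC vs. DOP.

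Over all genes, DOP vs. C called 114, with 496 under DESeq2, 19 under limma-voom, 2 with only those diets fitted, 0 with the block or without the muscle-rich libraries, and 0 to 200 when a library was left out. WCOC vs. C called 933, with 473 under the block, 486 within flow cell A, 1493 with no log2FC threshold and 468 to 1163 when a library was left out. WCOC vs. DOP called 1158, with 561 under the block, 1842 with no threshold, 80 without the muscle-rich libraries and 639 to 1291 when a library was left out.

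Small differences changed sign, and so did the large ones of NEURL1. Its main log2FC was 2.1751 in DOP vs. C and -3.4586 in WCOC vs. DOP. With the flow cell as a covariate the log2FC was 0.2185 for HEYL in DOP vs. C and 0.0196 for NOTCH2 in WCOC vs. C, which was 0.0099 within flow cell A. Without the muscle-rich libraries it was 0.0857 for NOTCH2, -0.0046 for HES1, -1.4538 for NEURL1 and 0.1387 for APH1B in DOP vs. C, and -0.1227 for NOTCH2, 0.1559 for NOTCH4 and 0.1653 for NEURL1 in WCOC vs. DOP. When a library was left out, the range in DOP vs. C was -0.0931 to 0.0506 for APH1B and -0.0102 to 0.1206 for NOTCH3. In WCOC vs. C it was -0.144 to 0.0458 for NOTCH2, -0.1222 to 0.048 for HES1 and -0.0199 to 0.3455 for HEY1. In WCOC vs. DOP it was -0.0721 to 0.1235 for NOTCH2, -0.1345 to 0.0616 for NOTCH4, -0.2699 to 0.1087 for HEY1 and -0.2201 to 0.0283 for HEYL. The cause of these changes was not tested. With 5 pigs per diet and 1 pen, differences under the fold limit had wide intervals.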
